A study of Mus musculus with 8 samples.

Results

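The genes described here encode, in the cell nucleus, the subunits of the mitochondrial machinery of oxidative phosphorylation. They were chosen by name alone: Ndufa, Ndufb, Ndufc, Ndufs or Ndufv followed by a number for complex I, Sdha to Sdhd for complex II, names that open with Uqcr for complex III, Cox4 to Cox8 for complex IV and Atp5 for complex V, without pseudogene names that end in ps and without the Ndufaf assembly factors. Of 23997 genes in the table of mouse regulatory T (Treg) cells, 84 matched, with 37 in complex I, 4 in complex II, 8 in complex III, 18 in complex IV and 17 in complex V. A name is not a function, and 4 of the names need a remark: Ndufa4 is known today as a subunit of complex IV, Cox7a2l as a factor that joins complexes III and IV into supercomplexes, and Atp5s and Atp5sl encode accessory proteins that are not structural subunits. The rule also leaves out true subunits with other names, among them Ndufab1, Cyc1 and Usmg5, which are given further on from a separate list. No row of the table used here bears the name of a subunit encoded in mitochondrial DNA.

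Oxidative phosphorylation couples the oxidation of NADH and succinate to the making of ATP. Complex I passes electrons from NADH and complex II from succinate to ubiquinone, complex III hands them on to cytochrome c, and complex IV reduces oxygen. The proton gradient that complexes I, III and IV build across the inner membrane drives complex V, the ATP synthase. Treg cells, the CD4 T cells that express the transcription factor Foxp3 and restrain immune responses, are known to draw on oxidative metabolism more than effector T cells do. Nuclear genes of the respiratory chain are known targets of the transcription factors NRF1, GABP (an ETS factor), YY1 and ERR alpha.

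RNA sequencing measured Treg cells of C57BL/6 mice, sorted as CD4+YFP+ cells from spleen and draining lymph nodes. In the 4 samples of the deficient group the genotype was Bcl11b f/f Foxp3-YFP-Cre/+, which leaves no unfloxed copy of Bcl11b (it encodes a zinc finger protein that T cells need to develop). In the 4 samples of the sufficient group it was Bcl11b f/+ Foxp3-YFP-Cre/+, with 1 floxed and 1 wild-type copy, so these controls also carried Cre and could lose 1 copy. Both groups had 1 Foxp3 allele with the YFP-Cre fusion, which limits Cre to cells that express Foxp3 from that allele, and the sort on YFP took those cells. The sources used here do not give the animals' age or sex. They do not say either whether each sample had its own animal, so a p-value here speaks of spread among libraries, and that spread may be technical.

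The samples did not all appear to be separate libraries. Replicates 1 and 3 of either group, and replicates 2 and 4 of the deficient group, spread apart only 1.10 to 1.26 times as far as read sampling alone would give, against 1.81 to 2.43 times in the 9 other pairs of 1 group. These 3 pairs were each averaged and are called 1 library here, which leaves 2 deficient and 3 sufficient libraries. The sources used here do not say whether the samples of a pair came from 1 library. Values were FPKM, fragments scaled to transcript length and to the sample's depth. The steps between low values gave a depth of about 2750000 to 12130000 fragments per sample, and a tested member had a median of 219.5 to 1062 fragments in a sample. Both upper ends are those of sufficient replicate 4, whose depth is the least sure. Of its low-value ratios to deficient replicate 1, 14.8% lay on such steps, against 47.9% to 70.4% in the other samples. Bcl11b was at 24.2, 19.3, 24.6 and 18.7 FPKM in deficient replicates 1 to 4 and at 42.4, 46.5, 42.4 and 39.1 FPKM in sufficient replicates 1 to 4, with no overlap. The log2 difference of Bcl11b was -0.95 ± 0.14 (SE) with an adjusted p of 0.0238 in limma, and it lost that call without deficient replicates 1 and 3 (adjusted p 0.0774) or without deficient replicates 2 and 4 (0.133), and also without sufficient replicates 1 and 3 (0.0522) or without sufficient replicate 2 (0.0602). Its FPKM covers the whole transcript, and the sources used here do not say which exons are floxed.

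Defining markers of the sorted cells were present in all 8 samples. Foxp3 lay between 148 and 157 FPKM in deficient and between 165 and 205 FPKM in sufficient samples, Cd4 between 287 and 296 against 249 and 278 FPKM, and Cd3e between 245 and 257 against 259 and 298 FPKM. Of 9 tested Treg and CD4 T cell markers 7 were below 0, and limma called Ctla4, an inhibitory receptor, lower (log2 difference -1.72, adjusted p 0.0174). Libraries of Foxp3, Il2ra, Ikzf2, Tnfrsf18, Ctla4 and Cd3e were lower without overlap and those of Cd4 higher. Over all genes tested, 17.9% were lower and 18.9% higher without overlap, and limma called 2.63%. The Treg and CD4 T cell list summed to 1956 to 2108 FPKM in deficient and 2393 to 2610.1 FPKM in sufficient libraries. With equal totals its median was -0.07, beside -0.28 as deposited. Markers of other cells moved with genotype as well. All 14 tested macrophage markers were above 0 in the difference, deficient minus sufficient, and limma called 8 of them higher. The summed level of the 15 macrophage markers in the table was 334 to 704 FPKM in deficient and 19.8 to 82.6 FPKM in sufficient libraries. Of 7 tested NK cell markers 6 were above 0 and 3 were called higher (summed level 47.2 to 84.1 against 10.8 to 20.8 FPKM). Of 4 tested dendritic cell markers 3 were above 0 and 2 were called higher (131 to 135 against 117 to 132 FPKM). No tested marker of B cells (11.6 to 15.0 against 11.02 to 23.8 FPKM), neutrophils (7.43 to 38.3 against 3.75 to 42.9 FPKM), erythroid cells (15.3 to 131 against 0.611 to 63.6 FPKM) or CD8 T cells (10.6 to 11.2 against 11.6 to 15.1 FPKM) passed limma's adjusted threshold. No marker on these lists was at 0 in all libraries. The part of these cells in the members' values was not tested, and in bulk samples fewer cells of a type and less RNA per cell cannot be told apart.

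No gene of oxidative phosphorylation passed the test. Of the 84 members, 78 averaged 1 FPKM or more across the 5 libraries and were tested, and limma called 0 of them at an adjusted p under 0.05, where it called 279 of 10614 genes, 2.63%, among all genes. The smallest adjusted p of a member was 0.145, for Ndufa13. At an unadjusted p under 0.05, 14 members were below that line against 17.8% of all genes, and the log2 difference of each of the 14 was negative.

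The members' estimates lay to 1 side by a small amount. The difference between groups, deficient minus sufficient, of log2(FPKM + 1) was below 0 for 68 tested members and above 0 for 10. Their median was -0.16, beside -0.01 over all genes tested, and the medians of the complexes were -0.17 for complex I, -0.11 for complex II, -0.19 for complex III, -0.12 for complex IV and -0.21 for complex V. The median standard error of a member was 0.12, so the typical estimate was little larger than its own error. Both deficient libraries were below all 3 sufficient libraries for 32 members (16, 1, 5, 3 and 7 in complexes I to V), where 17.9% of all genes tested showed that order. For 0 of the tested members were both above, against 18.9% of all genes.

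The 2 deficient libraries were not alike. Relative to the mean of the sufficient libraries, the median tested member was at -0.25 in the library of deficient replicates 1 and 3 and at -0.08 in that of deficient replicates 2 and 4. The sufficient libraries were at 0.01 (replicates 1 and 3), -0.09 (replicate 2) and 0.08 (replicate 4), so the higher deficient library fell among them and the other below all of them. Of the 78 tested members, 63 were higher in the second deficient library than in the first, by a median of 0.16, whereas 51.0% of all genes were, with a median of 0.01. The library with the lowest members also had the highest macrophage sum, 704 FPKM, against 334 FPKM in the second deficient library. Dendritic cell markers had the same order (135 against 131 FPKM). The sums of NK cell markers (47.2 against 84.1 FPKM) and erythroid markers (15.3 against 131 FPKM) had the reverse order. Among the sufficient libraries the lowest macrophage sum, 19.8 FPKM, was that of replicates 1 and 3, whose member median lay between the others. A link between these sums and the members was not tested. Without deficient replicates 1 and 3 the median of the members was -0.08, and without deficient replicates 2 and 4 it was -0.25. Leaving out sufficient replicate 2 gave -0.22 and leaving out sufficient replicate 4 gave -0.13.

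**Figure D1:**
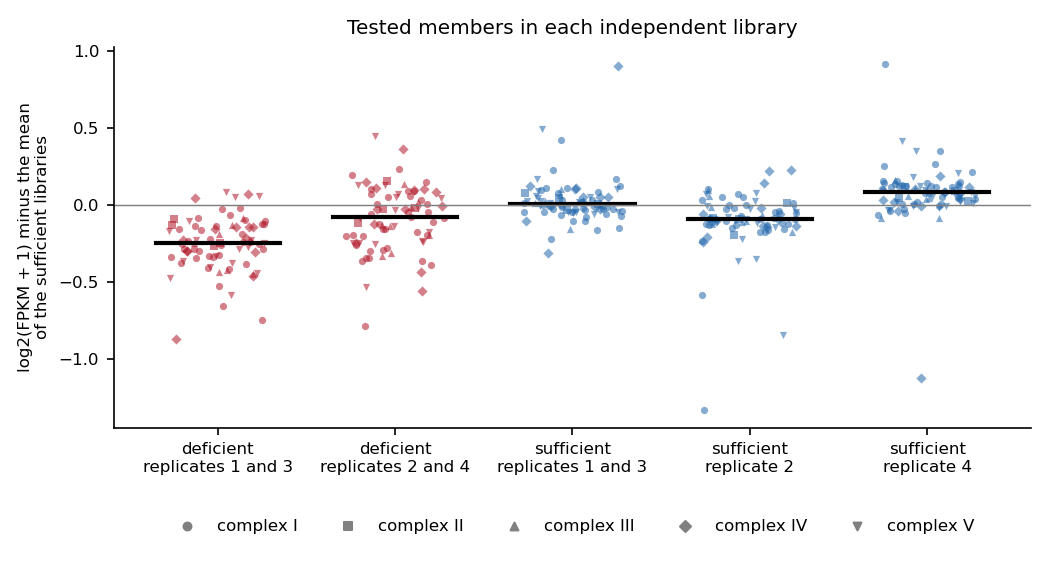
Each point is 1 tested member in 1 independent library, as log2(FPKM + 1) minus the mean of the sufficient libraries, with the marker shape for the complex and a bar for the median. The bar of the first deficient library is at -0.25, below the -0.09 to 0.08 of the sufficient libraries, and that of the second, at -0.08, is among them.

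The scale of the values moved these directions. Total FPKM was 474416 to 495435 in deficient and 509592 to 613276 in sufficient samples. With every library brought to the same total, the median of all genes tested moved to 0.18 and that of the members to 0.05. Of the members 29 were then below 0 and 49 above. Relative to the median of all genes, the members were at -0.15 as deposited and at -0.13 with equal totals. Under equal totals limma still called 0 members, while among all genes the split changed from 205 higher and 74 lower to 341 higher and 30 lower.

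Short stretches of promoter were searched for the motifs of NRF1, ETS factors, YY1 and ERR. RefSeq windows of build GRCm38.p6, from 250 bases before to 50 bases after a start, were matched for 69 of the 84 members (75 windows), and no entry was used for the others, among them Ndufs1, Ndufa2, Ndufa4l2, Ndufb9, Sdhc, Uqcrb, Uqcrc2, Uqcrq, Cox4i1, Cox4i2, Cox6a2, Cox6c, Cox8c and Atp5a1. Both strands were searched for fixed letters. The NRF1 motif GCGCNTGCGC was in 24.0% of the members' windows and in 4.60% of all 32851 windows. The ETS motif CCGGAAG was in 21.3% and 8.86%, the YY1 motif AAGATGGCG in 12% and 1.40%, and the ERR motif TCAAGGTCA in 2.67% and 0.423%. At least 1 of the motifs was in 49.3% of the members' windows and in 13.9% of all, and in the windows that could be printed no match overlapped one of another motif. The sites that follow, from all 5 complexes, are printed 5′ to 3′ on the gene's strand with up to 10 flanking bases and the motif in capitals. The search fixed the letters in capitals, so they show where the matches lie and what flanks them.
Ndufb4 (chr16:37654428-37654457, minus strand): ccttgtgcgcGCGCAGGCGCacttcctgag
Ndufb7 (chr8:83566728-83566754, plus strand): cctagatgacCCGGAAGacactgaagg
Sdha (chr13:74350319-74350348, minus strand): cgtttacaggGCGCAGGCGCaccaccactc
Sdha (chr13:74350276-74350305, minus strand): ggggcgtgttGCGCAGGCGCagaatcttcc
Sdhd (chr9:50603909-50603938, minus strand): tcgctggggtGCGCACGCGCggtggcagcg
Sdhd (chr9:50603879-50603905, minus strand): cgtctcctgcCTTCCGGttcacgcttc
Uqcr11 (chr10:80406871-80406897, minus strand): tctctcctccCCGGAAGtagatgtcaa
Uqcrh (chr4:116075064-116075090, minus strand): gtatgccgcaCTTCCGGccaggtcgcc
Cox6a1 (chr5:115349101-115349130, minus strand): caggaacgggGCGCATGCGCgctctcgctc
Cox6a1 (chr5:115348958-115348984, minus strand): cccatttccgCTTCCGGcgcgccggtg
Cox6b1 (chr7:30626126-30626152, minus strand): cctctcgcagCTTCCGGccagtcggaa
Atp5h (chr11:115420041-115420070, minus strand): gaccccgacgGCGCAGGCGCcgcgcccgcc
Atp5g2 (chr15:102671070-102671099, minus strand): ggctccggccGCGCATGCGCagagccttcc
Atp5j (chr16:84835046-84835074, minus strand): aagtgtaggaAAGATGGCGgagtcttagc
Atp5g3 (chr2:73911360-73911388, minus strand): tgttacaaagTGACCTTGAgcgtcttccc

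Runs of 10 capitals are NRF1 matches, runs of 7 are ETS matches, and those of 9 are YY1 (Atp5j) and ERR (Atp5g3) matches, on either strand. The capitals of Ndufb4, of both Sdha lines and of Atp5h are the same 10 letters. Sdhd and Cox6a1 each hold both an NRF1 and an ETS match in the window, and the match of Uqcrh begins 10 bases before the start. A match is a description of letters and not a binding site. Among tested members with a window, the 17 with the NRF1 letters had a median log2 difference of -0.22 and the 50 without had -0.16. The 16 with the ETS letters had -0.14 and the 51 without had -0.20. Among the genes for NRF1 and GABP, 3 overlapped between groups and 1 did not. Of all genes tested, 17.9% were lower and 18.9% higher without overlap of libraries. Nrf1 was at 26.7, 23.6, 23.9 and 22.5 against 21.4, 25.4, 22.9 and 22.7 FPKM and Gabpa, the DNA-binding part of GABP, at 18.03, 21.7, 19.2 and 22.3 against 19.8, 18.03, 21.9 and 16.00 FPKM, in deficient against sufficient replicates 1 to 4, with log2 differences of 0.05 ± 0.11 (SE) and 0.14 ± 0.14 (SE). Gabpb1, which pairs with Gabpa, overlapped as well, at -0.12 ± 0.12 (SE). Gabpb2, the other partner, was at 36.1, 32.4, 36.3 and 33.8 FPKM in deficient replicates 1 to 4 and at 28.7, 28.96, 28.1 and 26.3 FPKM in sufficient replicates 1 to 4. All deficient samples of Gabpb2 were above all sufficient samples, with a log2 difference of 0.30 ± 0.10 (SE) and an adjusted p of 0.196 in limma. These 4 genes were named after their values were seen.

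Complex I had 36 tested members of 37. Its 7 core subunits, which carry the flavin and iron-sulfur clusters, had a median log2 difference of -0.13, with 4 below and 3 above 0. All 13 tested members named Ndufa, Ndufa4 among them, and all 10 Ndufb members were below 0, with medians of -0.17 and -0.24. Of either, 0 passed limma's adjusted threshold, beside 8 members of the complex at an unadjusted p under 0.05. With equal totals 16 members of the complex were below 0 and 20 above.

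The lowest estimate in complex I was that of Ndufa12 (ENSMUSG00000020022.17, chr10:94198720-94221443, plus strand), an accessory subunit of the arm that faces the matrix. Ndufa12 was at 26.7, 40.7, 35.5 and 44.96 FPKM in deficient replicates 1 to 4 and at 48.5, 47.3, 53.1 and 61.5 FPKM in sufficient replicates 1 to 4. All 4 deficient samples were below all 4 sufficient samples, and deficient replicate 1 was the lowest of all. The library means were 36.9 ± 8.33 FPKM (SD, n = 2) against 53.2 ± 7.41 FPKM (SD, n = 3), and the log2 difference was -0.52 ± 0.17 (SE) with an adjusted p of 0.179 in limma, and without 1 library it lay between -0.75 and -0.30.

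The most abundant members of complex I were Ndufa3 and Ndufb7, accessory subunits of the membrane arm, and Ndufa4. Ndufa3 was at 201, 221, 200.1 and 238 FPKM in deficient replicates 1 to 4 and at 258, 219, 205 and 261 FPKM in sufficient replicates 1 to 4. Ndufa4 was at 179, 252, 174 and 256 FPKM in deficient replicates 1 to 4 and at 237, 203, 218 and 238 FPKM in sufficient replicates 1 to 4. In Ndufa4 deficient replicates 2 and 4 were the highest samples and deficient replicates 1 and 3 the lowest, so the 2 deficient libraries enclosed every sufficient sample. Ndufb7 was at 157, 129.5, 126 and 135 FPKM in deficient replicates 1 to 4 and at 176, 152, 138 and 178 FPKM in sufficient replicates 1 to 4. The log2 differences were -0.14 ± 0.13 (SE), -0.07 ± 0.17 (SE) and -0.24 ± 0.11 (SE), and of these only Ndufb7 had libraries that did not overlap.

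The smallest adjusted p belonged to Ndufa13 (ENSMUSG00000036199.9, chr8:69894180-69902558, minus strand), an accessory subunit also studied as the cell death factor GRIM-19, named here after its values were seen. Ndufa13 was at 63.6, 57.4, 57.1 and 57.9 FPKM in deficient replicates 1 to 4 and at 71.1, 75.03, 71.3 and 77.1 FPKM in sufficient replicates 1 to 4. No deficient sample reached a sufficient one, and the library means were 59.02 ± 1.92 FPKM (SD, n = 2) against 74.5 ± 2.99 FPKM (SD, n = 3). The log2 difference was -0.33 ± 0.10 (SE), and the adjusted p was 0.145. Ndufa6, another accessory subunit named after its values were seen, was at 118, 125, 123 and 111 FPKM in deficient replicates 1 to 4 and at 144, 143, 156 and 166 FPKM in sufficient replicates 1 to 4. Its log2 difference was -0.35 ± 0.11 (SE) with an adjusted p of 0.158, again without overlap.

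Complex II, succinate dehydrogenase, is also an enzyme of the citric acid cycle and is encoded wholly in the nucleus. The median of its 4 genes, -0.11, was the closest to 0 of the 5 complexes in the deposited values, and with equal totals it was 0.10, the farthest from 0. Sdha, the flavoprotein that oxidises succinate, was at 84.8, 89.7, 81.5 and 89.98 FPKM in deficient replicates 1 to 4 and at 93.7, 85.8, 94.2 and 93.9 FPKM in sufficient replicates 1 to 4. Sdhb, the iron-sulfur subunit, was at 96.4, 101, 80.3 and 92.5 FPKM in deficient replicates 1 to 4 and at 108, 98.6, 103 and 112 FPKM in sufficient replicates 1 to 4. Sdhb was the member whose 2 deficient libraries were both below the sufficient ones, although deficient replicate 2 was above sufficient replicate 2. The membrane anchors bind ubiquinone. Sdhc was at 42.6, 54.9, 48.6 and 53.6 FPKM in deficient replicates 1 to 4 and at 61.8, 48.1, 54.6 and 59.9 FPKM in sufficient replicates 1 to 4. Sdhd was at 55.3, 66.4, 57.7 and 68.01 FPKM in deficient replicates 1 to 4 and at 62.2, 60.8, 55.8 and 61.3 FPKM in sufficient replicates 1 to 4. Both anchors overlapped between groups. The log2 differences were -0.08 ± 0.10 (SE) for Sdha, -0.18 ± 0.11 (SE) for Sdhb, -0.15 ± 0.14 (SE) for Sdhc and 0.03 ± 0.11 (SE) for Sdhd, with adjusted p-values in limma of 0.746, 0.424, 0.624 and 0.919. With equal totals all 4 estimates were above 0.

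All 8 members of complex III were tested and all 8 estimates were below 0, with 1 member at an unadjusted p under 0.05, while with equal totals 3 were below 0 and 5 above. That member was Uqcr11 (ENSMUSG00000020163.12, chr10:80402997-80406830, minus strand), the smallest subunit of the complex. Uqcr11 was at 86.2, 96.8, 79.97 and 85.6 FPKM in deficient replicates 1 to 4 and at 108, 121, 95.2 and 118 FPKM in sufficient replicates 1 to 4. Sufficient replicate 3, at 95.2 FPKM, lay below deficient replicate 2, at 96.8 FPKM, but the library means did not overlap. These means were 87.1 ± 5.71 FPKM (SD, n = 2) against 114 ± 10.5 FPKM (SD, n = 3), and the log2 difference was -0.38 ± 0.12 (SE) with an adjusted p of 0.163.

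Uqcrh, the hinge protein between cytochrome c1 and cytochrome c, was the most abundant member of complex III. It was at 309.9, 388, 315 and 382 FPKM in deficient replicates 1 to 4 and at 419.7, 394, 428 and 455 FPKM in sufficient replicates 1 to 4. All deficient samples were below all sufficient samples, and the log2 difference was -0.29 ± 0.14 (SE) with an adjusted p of 0.336. The small subunit Uqcr10 was at 146, 151, 126 and 145 FPKM in deficient replicates 1 to 4 and at 164, 138, 148 and 154 FPKM in sufficient replicates 1 to 4. Uqcrb, which helps to form the ubiquinone pocket, was at 86.5, 135, 99.1 and 139.6 FPKM in deficient replicates 1 to 4 and at 129, 110.4, 123 and 139.6 FPKM in sufficient replicates 1 to 4. In Uqcrb the gap between the deficient libraries, 0.56 on the log2 scale, was the largest rise from the first to the second of all tested members. Uqcr10 and Uqcrb overlapped between groups, with log2 differences of -0.07 ± 0.11 (SE) and -0.14 ± 0.18 (SE). The core proteins Uqcrc1 and Uqcrc2 and the Rieske iron-sulfur protein Uqcrfs1, whose values were seen before they were named, had log2 differences of -0.22, -0.11 and -0.16.

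Complex IV has tissue isoforms for several subunits, and the isoform used in these cells was clear in the levels. Of its 18 members 13 were tested, and 10 of these were below 0, or 3 with equal totals. FPKM is given per length, so levels can be compared between genes. Cox4i1, the common isoform of subunit 4, was at 389, 369, 353 and 364 FPKM in deficient replicates 1 to 4 and at 467, 396, 437 and 459.8 FPKM in sufficient replicates 1 to 4. Cox4i2, the isoform of lung and hypoxic cells, was at 0.561, 0, 0.293 and 0 against 0, 0, 0 and 0 FPKM in deficient against sufficient replicates 1 to 4. Its highest value, 0.561 FPKM, compares with 353 FPKM as the lowest of Cox4i1.

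The same held for subunits 6 to 8. Cox6a1, the common isoform, was at 223, 255, 209 and 238 FPKM in deficient replicates 1 to 4 and at 247, 240.4, 253 and 263 FPKM in sufficient replicates 1 to 4, and Cox6b1 at 221, 313, 244 and 306 FPKM in deficient replicates 1 to 4 and at 281, 269, 283 and 312 FPKM in sufficient replicates 1 to 4. Cox6b2, known from testis, was at 2.69, 2.702, 0.472 and 1.64 against 0.962, 1.88, 1 and 1.61 FPKM, at the edge of the filter. Cox8a was at 260.1, 267, 243 and 255 FPKM in deficient replicates 1 to 4 and at 246, 269.6, 207 and 238 FPKM in sufficient replicates 1 to 4. Its partners Cox8b, of heart and muscle, and Cox8c, of testis, were listed at 0 in all 8 samples, as was Cox7b2. Cox7b, the partner of Cox7b2 outside testis, was at 74.8, 97.8, 78.6 and 88.8 FPKM in deficient replicates 1 to 4 and at 99.4, 82.4, 105 and 102 FPKM in sufficient replicates 1 to 4. Ndufa4l2, the hypoxia-linked relative of Ndufa4, was also listed at 0 throughout. The log2 differences were -0.12 ± 0.11 (SE), -0.10 ± 0.15 (SE), 0.22 ± 0.23 (SE), 0.07 ± 0.12 (SE) and -0.17 ± 0.14 (SE) for Cox6a1, Cox6b1, Cox6b2, Cox8a and Cox7b, and all 5 overlapped between groups. Of Cox4i1 the 2 deficient libraries were below the sufficient ones, and the log2 difference was -0.24 ± 0.12 (SE) with an adjusted p of 0.36.

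Subunit 7a comes from Cox7a2 in most tissues and Cox7a1 in heart and muscle. Cox7a2 was at 92.2, 99.9, 73.8 and 97.3 FPKM in deficient replicates 1 to 4 and at 94.97, 85.3, 103 and 91.3 FPKM in sufficient replicates 1 to 4, with overlap and a log2 difference of -0.02 ± 0.12 (SE). Cox7a1 was at 0, 0, 0.386 and 0.964 against 4.697, 1.54, 1.48 and 0 FPKM in deficient against sufficient replicates 1 to 4. Of these 8 values 3 are listed at 0 and sufficient replicate 1 alone reached 4.70 FPKM, so its log2 difference of -0.71 ± 0.55 (SE), the lowest of all members, rests on a gene near the filter. Cox7a2l (ENSMUSG00000024248.14, chr17:83501918-83517330, minus strand), the supercomplex factor, was at 193, 196, 207 and 212 FPKM in deficient replicates 1 to 4 and at 278, 234, 293 and 315 FPKM in sufficient replicates 1 to 4. All deficient samples were below all sufficient samples. The library means were 202 ± 3.08 FPKM (SD, n = 2) against 278 ± 41.1 FPKM (SD, n = 3), and the log2 difference was -0.45 ± 0.15 (SE) with an adjusted p of 0.178 in limma; in the same complex this was the member at an unadjusted p under 0.05.

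Cox6a2, the muscle isoform of subunit 6a, went the other way at a very low level. Cox6a2 (ENSMUSG00000030785.8, chr7:128205435-128206387, minus strand) was at 1.27, 2.23, 1.99 and 1.03 FPKM in deficient replicates 1 to 4 and at 0, 0, 0 and 0.164 FPKM in sufficient replicates 1 to 4. The 3 sufficient samples at 0 and the fourth at 0.164 FPKM were all below the deficient samples. Cox6a2 rested on about 3, 5, 15 and 6 fragments in deficient and 0, 0, 0 and 1 in sufficient replicates 1 to 4. Its mean over libraries was 0.685 FPKM, under the filter, and without the filter limma called it higher with an adjusted p of 0.0375, the sole member called there, where 0.578% of all genes were called. In RefSeq's gene order Itgad and Itgax, integrin genes of macrophages and dendritic cells, are its neighbours on 1 side. Itgad was at 16.4, 9.303, 17.03 and 6.72 against 0.183, 1.77, 0.302 and 2.77 FPKM and Itgax at 1.18, 1.403, 1.34 and 1.04 against 0, 0.174, 0.0213 and 0.142 FPKM in deficient against sufficient replicates 1 to 4. Itgad and Itgax were higher in the deficient samples, as the macrophage list was. On the other side, 9130023H24Rik and Armc5 overlapped between groups, with log2 differences of 0.20 ± 0.20 (SE) and 0.06 ± 0.16 (SE). The part of any neighbour in the value of Cox6a2 was not tested.

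Complex V had 17 tested members, of which 14 were below 0, or 7 with equal totals. The 5 subunits of the F1 head, where ATP is made, had log2 differences between -0.38 and -0.10. Atp5b, the catalytic beta subunit, was at 321, 345, 310.5 and 347 FPKM in deficient replicates 1 to 4 and at 431, 383, 419 and 425 FPKM in sufficient replicates 1 to 4. Atp5e, the epsilon subunit of the central stalk and the most abundant member of all, was at 442, 395, 371 and 407 FPKM in deficient replicates 1 to 4 and at 545, 440.2, 478 and 479 FPKM in sufficient replicates 1 to 4. In both genes all deficient samples but deficient replicate 1 of Atp5e were below all sufficient samples. Library means of Atp5b were 331 ± 21.3 FPKM (SD, n = 2) against 411 ± 24.6 FPKM (SD, n = 3). The log2 differences were -0.31 ± 0.12 (SE) for Atp5b and -0.24 ± 0.12 (SE) for Atp5e, with adjusted p-values of 0.24 and 0.359 in limma. Atp5d, the delta subunit of the stalk, named after its values were seen, had the lowest log2 difference of the head. It was at 170.3, 135, 146 and 121 FPKM in deficient replicates 1 to 4 and at 203, 185, 179.8 and 181 FPKM in sufficient replicates 1 to 4, with a log2 difference of -0.38 ± 0.12 (SE) and an adjusted p of 0.175.

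The ring of subunit c turns in the membrane and is encoded by Atp5g1, Atp5g2 and Atp5g3, which give the same mature protein. Atp5g1 (ENSMUSG00000006057.15, chr11:96068852-96075670, minus strand) was at 71.4, 87.2, 59.4 and 79.2 FPKM in deficient replicates 1 to 4 and at 94.4, 100.4, 95.4 and 100.01 FPKM in sufficient replicates 1 to 4. All deficient samples were below all sufficient samples, and the library means were 74.3 ± 12.6 FPKM (SD, n = 2) against 98.4 ± 3.06 FPKM (SD, n = 3). Atp5g2 was at 111, 96.6, 149.96 and 167 FPKM in deficient replicates 1 to 4 and at 153, 123, 201 and 178 FPKM in sufficient replicates 1 to 4. Atp5g3 was at 259, 254, 251 and 259.5 FPKM in deficient replicates 1 to 4 and at 289, 297, 292 and 321 FPKM in sufficient replicates 1 to 4. Atp5g3 gave the most transcript per length of the 3, and its deficient samples, between 251 and 260 FPKM, were all below the sufficient ones, between 289 and 321 FPKM. The log2 differences of Atp5g1, Atp5g2 and Atp5g3 were -0.41 ± 0.13 (SE), -0.26 ± 0.18 (SE) and -0.24 ± 0.11 (SE), with adjusted p-values of 0.158, 0.485 and 0.307. That of Atp5g1 was the lowest estimate in complex V.

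Among the other parts of the ATP synthase, Atp5h, subunit d of the outer stalk, was among the 3 most abundant. It was at 247, 323, 234 and 329.9 FPKM in deficient replicates 1 to 4 and at 311, 266, 316 and 358 FPKM in sufficient replicates 1 to 4. Its deficient libraries lay on either side of the sufficient mean, with a log2 difference of -0.15 ± 0.18 (SE). The accessory genes Atp5s and Atp5sl were at far lower levels, 1.95, 2.99, 3.12 and 2.45 against 1.82, 1.64, 2.77 and 3.54 FPKM and 28.5, 29.3, 30.6 and 26.6 against 29.7, 29.99, 25.1 and 27.7 FPKM in deficient against sufficient replicates 1 to 4, and overlapped. With Atp5s, Atp5sl and Cox7a2l left out the median of the remaining 75 tested members was -0.16.

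**Figure D2:**
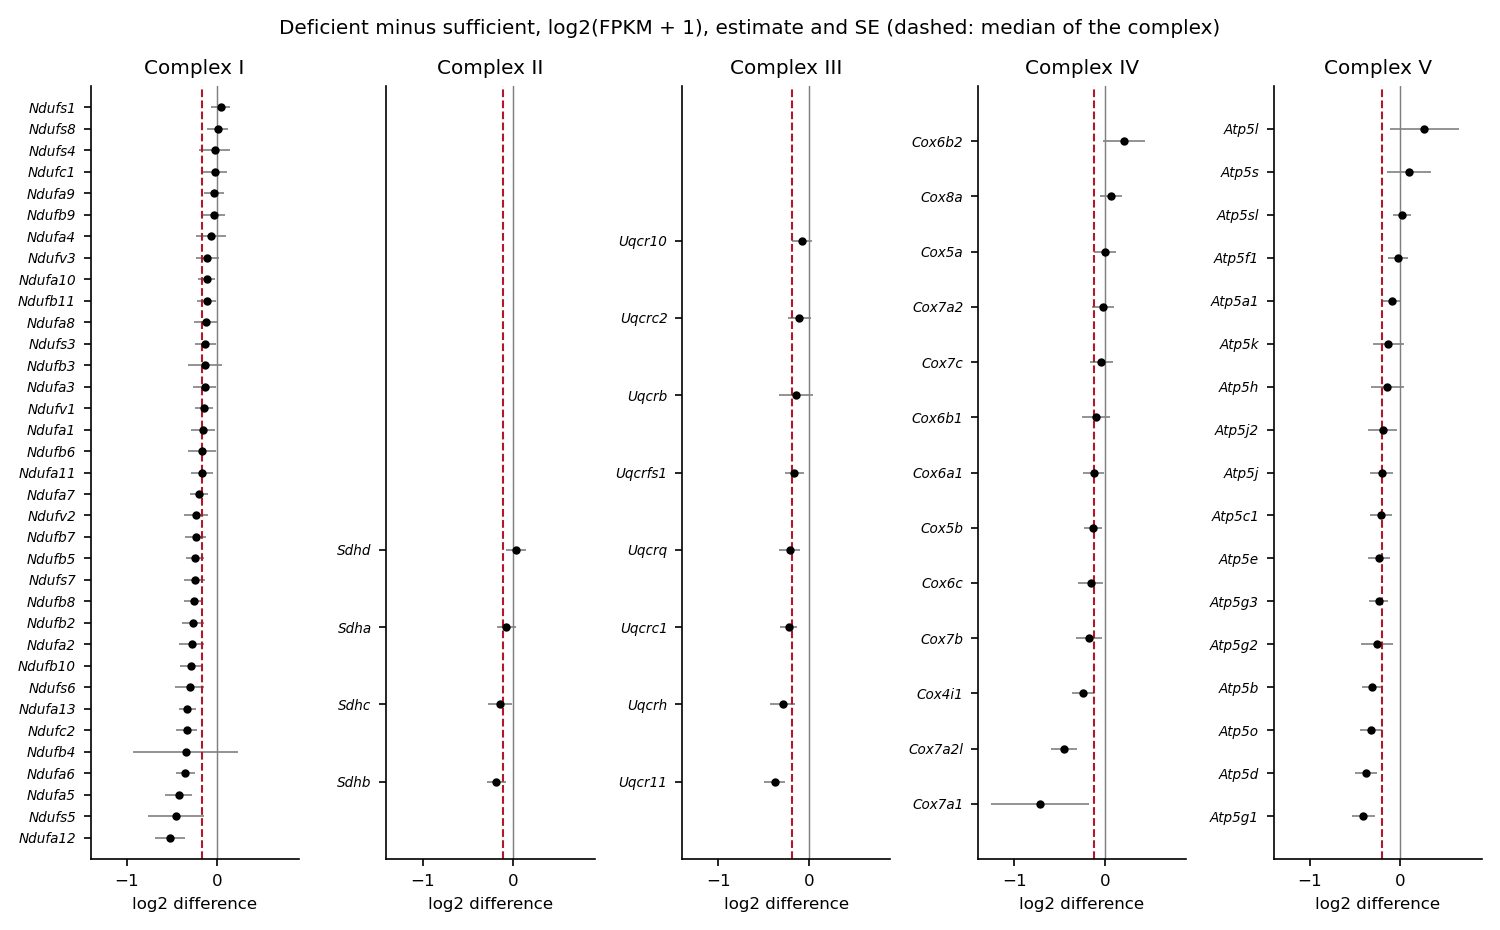
Points are differences in log2(FPKM + 1), deficient minus sufficient, of 77 of the 78 tested members with their standard errors, in a panel per complex, and the dashed lines are the medians, from -0.11 in complex II to -0.21 in complex V. Most points are left of 0 and close to it, and the wide bars of Cox7a1, Ndufb4 and Atp5l mark members whose samples disagreed.

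Summed over their members, the complexes had lower means in deficient cells by FPKM, with overlap of samples in all but complex III. Complex I summed to 2564, 2776, 2470 and 2831 FPKM in deficient replicates 1 to 4 and to 3092, 2829, 2895 and 3243 FPKM in sufficient replicates 1 to 4. Deficient replicate 4 was just above sufficient replicate 2, and the other deficient samples were below all sufficient ones. Complex V summed to 2879, 3236, 2871 and 3348 FPKM against 3654, 3310, 3650.4 and 3707 FPKM, with deficient replicate 4 again above sufficient replicate 2. In complexes II and IV deficient replicates 2 and 4 were both above sufficient replicate 2, with 312 and 304 against 293 FPKM and 2245 and 2270.5 against 2199 FPKM. In complex III the highest deficient sample, at 1110.3 FPKM, was just below the lowest sufficient one, at 1121 FPKM. Averaged to libraries, complexes I, III and V did not overlap between groups, and complexes II and IV did. The gaps were narrow in complex I (highest deficient library 2804, lowest sufficient library 2829 FPKM) and complex V (3292 and 3310 FPKM). The ratio of the group means over libraries, deficient as a percentage of sufficient, was 88.0% for complex I, 93.1% for complex II, 86.2% for complex III, 90.7% for complex IV and 86.7% for complex V.

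As a share of total FPKM all members together took 1.81% and 1.98% in the deficient libraries and 1.87%, 1.91% and 1.79% in the sufficient ones. These shares overlap, with means of 1.90% ± 0.12 (SD, n = 2) and 1.86% ± 0.06 (SD, n = 3). The share of complex I was 0.550% ± 0.030 (SD, n = 2) against 0.538% ± 0.015 (SD, n = 3).

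**Figure D3:**
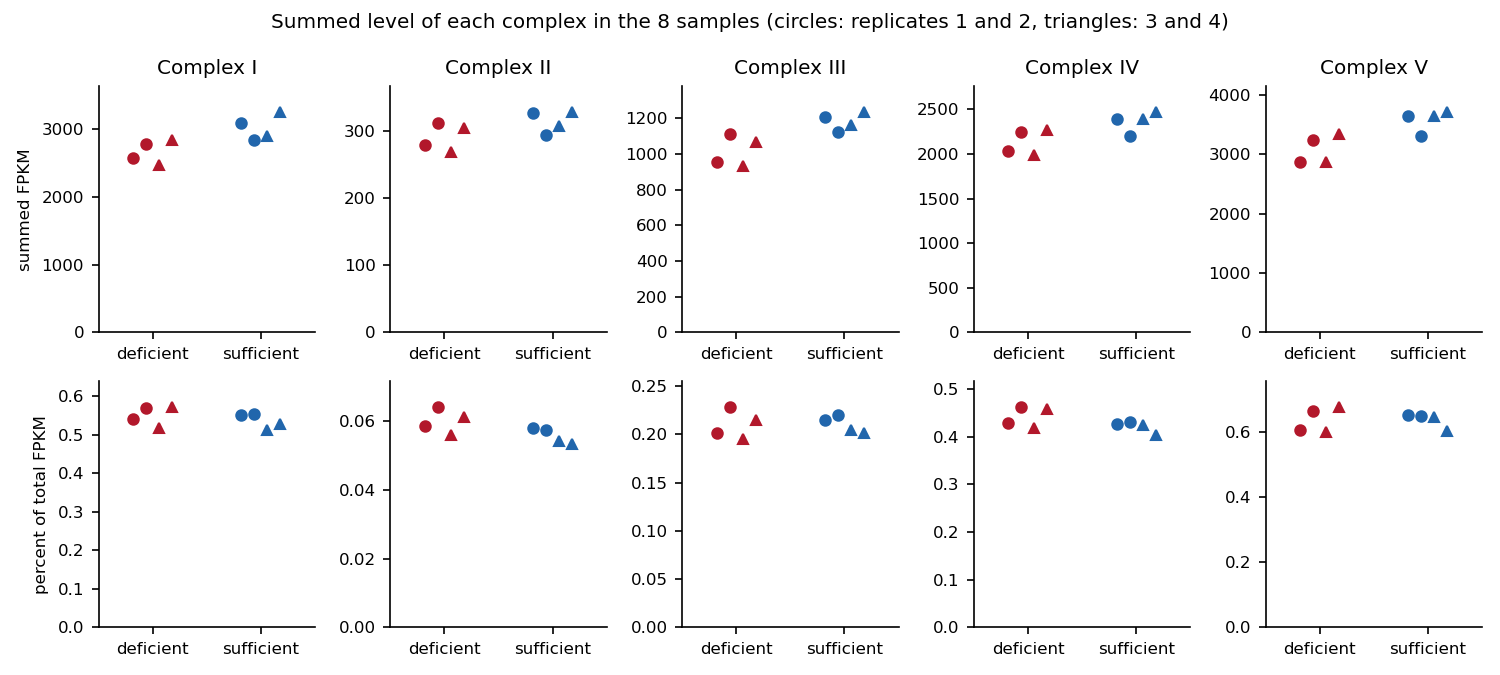
Upper panels give the summed FPKM of each complex and lower panels the same sum as a percentage of total FPKM, 1 point per sample, with circles for replicates 1 and 2 and triangles for replicates 3 and 4. In the upper panels the deficient means are 86.2% to 93.1% of the sufficient means, and samples of the groups overlap in each complex but complex III. Averaged to libraries, complexes I and V do not overlap either. In the lower panels all 5 overlap.

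The members are short and abundant transcripts, and their values were set beside those of other genes of that kind. Their median transcript length was 743.5 bases and their median level 98.6 FPKM, beside 2606 bases and 14.9 FPKM over all genes tested. Among tested protein-coding genes of at least 50 FPKM and 500 to 1000 bases, the 33 members had a median log2 difference of -0.17 and the 267 other genes -0.21. Under 500 bases the 10 members were at -0.15 and the 26 others at -0.33. Between 1000 and 1500 bases the medians were -0.18 for 10 members and -0.17 for 238 others. From 2500 to 4000 bases they were -0.10 for 3 members and -0.05 for 415 others, and the 226 genes of 4000 bases or more, with no member among them, were at 0.10. Of all 336 genes under 1000 bases at that level, members included, 88.4% were below 0 and limma called 4. Under equal totals their median was 0.00 while that of the longest genes was 0.31, so the order by length stayed. At 1 to 50 FPKM and under 1000 bases, by contrast, 8 members were at -0.39 and 507 others at -0.10. Medians over 10 or fewer members are weak. The differences between members and other genes were not tested.

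**Figure D4:**
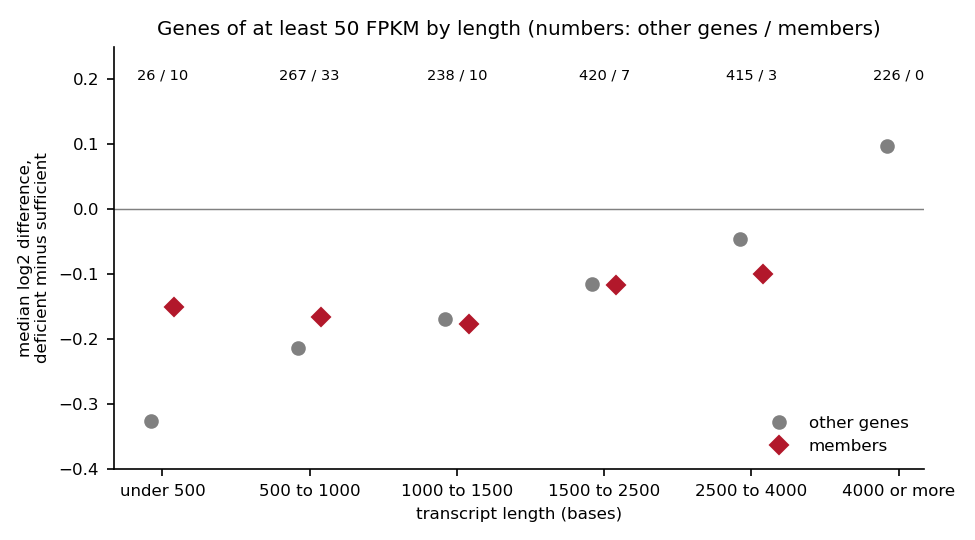
Median log2 difference of protein-coding genes of at least 50 FPKM in bands of transcript length, with circles for other genes, diamonds for members and their numbers above. Other genes run from -0.33 under 500 bases to 0.10 at 4000 bases or more, and the members' medians lie between -0.18 and -0.10.

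Some members differed between samples that otherwise appeared to be the same library. Across the 3 such pairs the median absolute difference was 0.10, 0.10 and 0.11 on the log2 scale for tested members, and 0.10, 0.10 and 0.11 for all genes. Atp5l (ENSMUSG00000038717.8, chr9:44912557-44920742, minus strand), subunit g of the ATP synthase membrane part, was at 31.01, 46.8, 117 and 144 FPKM in deficient replicates 1 to 4 and at 55.7, 38.3, 142 and 89.3 FPKM in sufficient replicates 1 to 4. Replicates 1 and 2 were low and replicates 3 and 4 high in both groups, and Atp5l was the sole tested member more than 0.5 apart, in 1 direction, in all 3 pairs, as were 19 of 10614 genes. The difference between groups, 0.26 ± 0.38 (SE), was smaller than that between the samples of 1 library, and the annotation holds pseudogene copies of Atp5l, whose part in its value was not tested.

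Ndufb4, Ndufs5 and Atp5g2 also varied this way, the former pair named after their values were seen. Ndufb4, an accessory subunit of the membrane arm, was at 6.33, 1.86, 16.3 and 23.1 FPKM in deficient replicates 1 to 4 and at 17.97, 5.49, 23.9 and 29.9 FPKM in sufficient replicates 1 to 4. Ndufs5, an accessory subunit on the side of the intermembrane space, was at 32.2, 0.0016, 42.1 and 46.1 FPKM in deficient replicates 1 to 4 and at 44.9, 26.7, 50.7 and 52.1 FPKM in sufficient replicates 1 to 4. The near-zero value of Ndufs5 in deficient replicate 2 stands beside 46.1 FPKM in deficient replicate 4, the sample averaged with it. No loss of expression is read from that value. Atp5g2, given above, was also higher in replicates 3 and 4 of each group. For these genes the value of a sample depended on which replicates were read, and no direction between groups is read from their log2 differences.

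**Figure D5:**
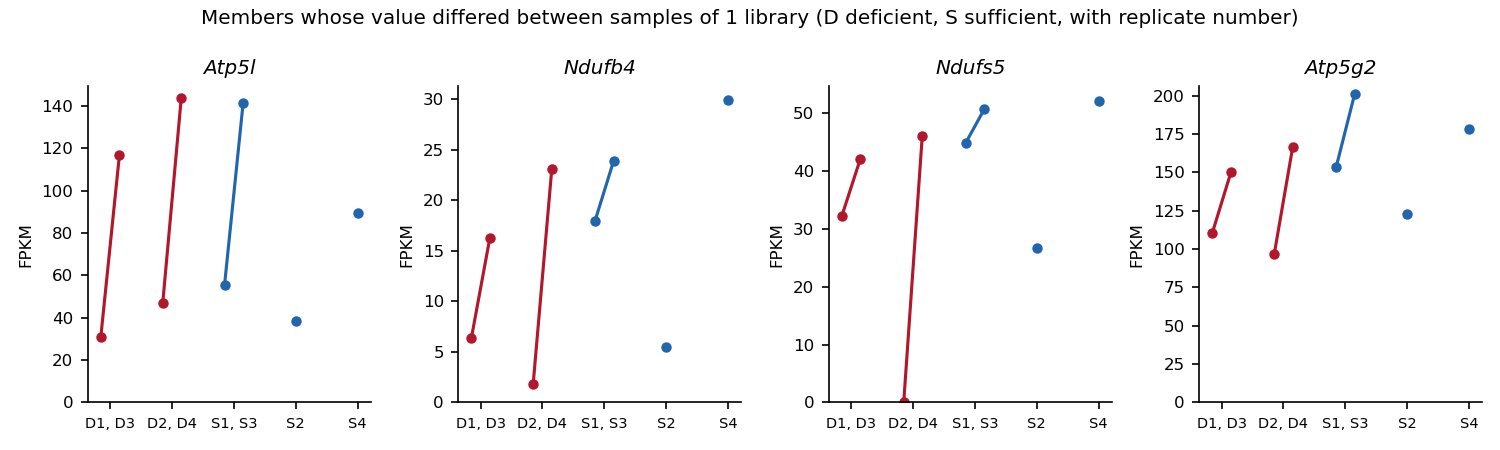
FPKM of Atp5l, Ndufb4, Ndufs5 and Atp5g2 in the 8 samples, where a line joins the 2 samples of 1 library and single points are sufficient replicates 2 and 4. The lines of Atp5l climb from between 31.0 and 55.7 FPKM to between 117 and 144 FPKM in all 3 libraries, further apart than the groups.

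The count of called members depended on how many libraries were assumed. The 3 averaged pairs were split when the 8 samples were taken as separate libraries. In that fit limma called 15 members, all lower, where it called 17.4% of all genes, and 15 of 78 is 19.2%. With a replicate block added it called 13, all lower, where 13.4% of all genes were called. Ndufa12, Ndufa13, Ndufa6, Uqcr11, Cox7a2l, Atp5b and Atp5g1 were among those called in both fits.

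Among genes around the respiratory chain limma called 0 of 140 tested on 5 lists, with 23 of them at an unadjusted p under 0.05, beside 2.63% and 17.8% of all genes. Subunits and electron carriers outside the name rule had 25 tested genes and a median of -0.17, with Coq10b (-0.52 ± 0.15 (SE)) lowest and Coq10a (0.24 ± 0.17 (SE)) highest, both linked to coenzyme Q. Cyc1, cytochrome c1 of complex III, was at 75.98, 76.8, 72.5 and 77.3 against 80.5, 83.01, 77.8 and 97.8 FPKM in deficient against sufficient replicates 1 to 4, and Cycs, cytochrome c, at 12.9, 16.03, 12.3 and 17.02 against 14.03, 13.9, 15.99 and 13.8 FPKM. Cyc1 was lower in both deficient libraries and Cycs overlapped, with log2 differences of -0.19 ± 0.12 (SE) and 0.02 ± 0.14 (SE). Usmg5, a small subunit of the ATP synthase, had -0.19 ± 0.17 (SE) and Ndufab1, the acyl carrier subunit of complex I, -0.25 ± 0.25 (SE). These 4 were named after their values were seen.

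Assembly factors of the complexes (45 tested) had a median of -0.11. Sco2, a copper chaperone of complex IV, was lowest at -0.56 ± 0.22 (SE) and Cmc2 highest at 0.49 ± 0.24 (SE). Regulators of mitochondrial biogenesis (22 tested) were at -0.03, from Polg2, part of the mitochondrial DNA polymerase (-0.37 ± 0.15 (SE)), to Sirt3, a deacetylase (0.32 ± 0.12 (SE)), and Ppargc1a, the coactivator PGC-1 alpha, was listed at 0 in all samples. The 18 citric acid cycle genes were at -0.06. Suclg2, of succinyl-CoA ligase, was lowest at -0.35 ± 0.12 (SE), and Idh2, mitochondrial isocitrate dehydrogenase, highest at 0.49 ± 0.15 (SE). Idh2 was at 27.7, 23.4, 24.97 and 24.8 FPKM in deficient replicates 1 to 4 and at 13.2, 18.1, 16.2 and 20.5 FPKM in sufficient replicates 1 to 4, and every deficient sample was above every sufficient one, with an adjusted p of 0.157 in limma. Genes of protein import and mitochondrial mass (30 tested) had a median of -0.14, with the chaperonin Hspe1 lowest at -0.60 ± 0.18 (SE) and the import factor Timm8b highest at 0.24 ± 0.20 (SE). Hspe1 was at 103, 108, 104 and 126 FPKM in deficient replicates 1 to 4 and at 177, 132, 209.8 and 186 FPKM in sufficient replicates 1 to 4, without overlap, and its adjusted p was 0.149. With equal totals the medians of the 5 lists were 0.03, 0.09, 0.17, 0.15 and 0.06 in this order, beside 0.18 over all genes.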

How the data were processed

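The authors deposited FPKM values of stranded total RNA libraries from 8 samples, 4 per group. The submitters' processing notes name STAR 2.5.1, Cuffnorm 2.2.1 and Cuffdiff 2.2.1 among the tools and mm10 as the build; the sources used here give neither settings nor annotation, nor which sample ran on HiSeq 2500 and which on MiSeq. Of the value columns, 8 matched no sample and were not used. Samples of 1 group whose log ratios spread less than 1.5 times the sampling noise at 150 to 500 reads were averaged. Depth was estimated from steps between low values and is approximate; intervals from counting are not given.

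The test took genes averaging 1 FPKM or more across the 5 libraries, on log2(FPKM + 1), which understates changes of low genes, with limma 3.58.1 (mean-variance trend, two-sided, Benjamini-Hochberg over 10614 genes, threshold 0.05) in R 4.3.3. Tested on simulated data for 10614 genes in 2 against 3 libraries, it found 72% of the changes of 2-fold and 97% of those of 4-fold, with 12 false among 181 calls. The 200 changed genes were drawn from those with a mean log2(FPKM + 1) above 3. Changes in lower genes, and changes as small as those of the members, were not simulated. Lengths and coordinates come from GENCODE M21 (GRCm38). Members, lists and the naming rule (the 3 most abundant and the extreme members per complex, complex II, isoform families, the extremes per list) were chosen with earlier results of these data known. The counts and medians cover all members, but 1 gene that the rule names is not reported here.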

Additional observations from a re-analysis of the deposited data

How the results depend on the processing

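The alternatives were another pseudocount, other filters, scalings and variance estimates, 8 separate libraries with and without a replicate block, and leaving out each replicate or library; replicates 1 and 2 alone and 3 and 4 alone were chosen after seeing the data. The number of called members stayed at 0 in all but 3 of these: no filter on low values gave 1 (Cox6a2), 8 samples as separate libraries gave 15, and those with a replicate block gave 13. Called genes on the pathway lists rose from 0 to 20 and, with the replicate block, to 15, of 140 tested, beside 17.4% and 13.4% of all genes. The replicate numbers were not taken as pairs, since the sources used here name nothing that same-numbered samples share and not every pair reached the correlation set for pairing: deviations of same-numbered samples correlated between 0.03 and 0.13 over genes, and 6 of 8 samples correlated best with their own number, which is a hint from the data and not the design. Bcl11b stayed lower but lost its call without a filter (-0.95, adjusted p 0.0726), with equal totals (-0.75, 0.0815), in replicates 1 and 2 (-1.01, 0.0583) and in replicates 3 and 4 (-0.89, 0.0563); without 1 library it was -1.13 to -0.78, and the call was lost without either deficient library (0.0774 and 0.133), without sufficient replicates 1 and 3 (0.0522) and without sufficient replicate 2 (0.0602).

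With equal totals the medians of complexes I to V were 0.037, 0.099, 0.025, 0.091 and 0.0027 and the summed levels 102%, 108%, 99.8%, 105% and 100.5% of the sufficient mean. Signs then turned for Atp5h (0.066), Cox6a1 (0.091), Cox6b1 (0.12), Cox7a2 (0.19), Cox7b (0.041), Ndufa3 (0.071), Ndufa4 (0.14), Sdha (0.14), Sdhb (0.026), Sdhc (0.063), Uqcr10 (0.14) and Uqcrb (0.068). Quantile normalization gave medians of -0.11 for complex III and -0.070 for complex V, sums of 93.6%, 100.7% and 95.9% for complexes III, IV and V, and turned Atp5h (0.032), Atp5s (-0.049), Cox6a1 (0.0085), Cox6b1 (0.056), Cox7a2 (0.053), Ndufa3 (0.0071), Ndufa4 (0.064) and Uqcr10 (0.039). Atp5l turned to -0.034 with 8 separate libraries, with or without the block. In replicates 1 and 2 the turned genes were Atp5l (-0.27), Atp5sl (-0.044), Cox7a2 (0.091) and Sdhd (-0.020), and in replicates 3 and 4 Atp5s (-0.13), Cox6b2 (-0.21) and Cmc2 (-0.016).

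Leaving out a replicate or library moved the median of complex I between -0.25 and -0.12, of complex II between -0.19 and -0.022, of complex III between -0.24 and -0.13, of complex IV between -0.22 and -0.0054 and of complex V between -0.27 and -0.082, and the sum of complex III between 80.1% and 92.2%. It turned the sign of Atp5h (-0.37 to 0.073), Atp5l (-0.35 to 0.59), Atp5s (-0.093 to 0.30), Atp5sl (-0.021 to 0.059), Cox6b1 (-0.30 to 0.11), Cox6b2 (-0.19 to 0.48), Cox7a2 (-0.14 to 0.10), Ndufa4 (-0.33 to 0.19), Sdhd (-0.094 to 0.15), Uqcrb (-0.42 to 0.14) and Timm8b (-0.064 to 0.55). Among estimates that kept their sign, Ndufa12 ran from -0.75 to -0.30, Atp5g1 from -0.58 to -0.24, Atp5g2 from -0.48 to -0.094, Uqcrh from -0.44 to -0.14 and Sco2 from -0.86 to -0.25. The cause was not tested.

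With 2 and 3 libraries, differences of the members' size are near their standard errors, so a missed threshold does not show that levels were equal. Depth is approximate and least sure for sufficient replicate 4. Members under 100 fragments numbered between 3 (sufficient replicate 4) and 15 (deficient replicate 1) in a sample.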
